A study of Mus musculus with 13 samples.

Results

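The 33 genes described here encode the enzymes that make sterols and fatty acids, together with the regulators that set their transcription and one sterol carrier. They were listed by gene symbol, with no threshold on measured values, and fall into 18 enzymes of the sterol branch, 11 enzymes of the fatty acid branch and 4 genes of regulation and transport. Each was found once among the 55401 gene identifiers of the bulk RNA-seq table, and all 33 passed the filter on low counts together with the other genes of the 14985 that were tested. The libraries came from frozen brain hemispheres of male wild-type C57BL/6J mice. The treatment protocol in the labels counts 4 control, 3 cuprizone and 3 recovery animals, fewer than the libraries. A figure legend of the paper counts 13 samples, 5 control, 4 cuprizone and 4 recovery, with bulk RNA-seq for all of them, which matches the libraries. The sources differ, so it is not settled from the labels alone that each library is a separate mouse. Every n counts libraries, and p-values measure the spread between them, which may in part be technical. CTL mice (n = 5) received control chow for 6 weeks. CPZ mice (n = 4) received chow with 0.3% cuprizone, a copper chelator that injures oligodendrocytes, for 4 weeks and were collected at the end of it. RCV mice (n = 4) received the same chow for 4 weeks and control chow for a further 2 weeks, and the titles of their libraries begin with "Veh" while the treatment field names the recovery. CTL and RCV mice were collected at week 6 and CPZ mice at week 4, so the time of collection and the end of the diet cannot be told apart in comparisons with CPZ. The labels give an age of 6 to 8 weeks, an age different from that in the study's methods.

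Cells make cholesterol from acetyl-CoA through mevalonate, isoprenoids, squalene and lanosterol, and make fatty acids from the same acetyl-CoA through malonyl-CoA. Both branches are controlled by the sterol regulatory element binding proteins (SREBPs), membrane-bound transcription factors that are released when sterols in the endoplasmic reticulum run low. SREBP-2, encoded by Srebf2, is known mainly for the sterol branch, and SREBP-1, encoded by Srebf1, mainly for the fatty acid branch. Brain cholesterol is made locally, since the blood-brain barrier keeps out lipoproteins, and most of it lies in myelin, the membrane that oligodendrocytes wrap around axons.

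Promoter sequences from RefSeq (GRCm38.p6, the build also called mm10) were matched to 26 of the 33 genes by symbol. They are shown for 5 genes whose expression differed between groups and which stand for the start of the sterol branch, its isoprenoid and post-lanosterol steps, its regulation and the fatty acid branch. Each is the 250 bases before the annotated start site, 5′ to 3′ on the gene's own strand, for Hmgcs1 (chr13:119690101-119690350, plus strand), Idi1 (chr13:8885356-8885605, plus strand), Msmo1 (chr8:64733579-64733828, minus strand), Insig1 (chr5:28071162-28071411, plus strand) and Fasn (chr11:120824548-120824797, minus strand). Capitals mark the sterol regulatory element TCACNCCAC, to which SREBPs bind, and the box CCAAT, to which the SREBP partner NF-Y binds, both read on either strand, so that ATTGG is CCAAT on the opposite strand. The annotated start sites lie 28 bases (Hmgcs1), 105 bases (Idi1) and 49 bases (Insig1) from the nearest start in GENCODE M21, and at a GENCODE start in Msmo1 and Fasn.
Hmgcs1: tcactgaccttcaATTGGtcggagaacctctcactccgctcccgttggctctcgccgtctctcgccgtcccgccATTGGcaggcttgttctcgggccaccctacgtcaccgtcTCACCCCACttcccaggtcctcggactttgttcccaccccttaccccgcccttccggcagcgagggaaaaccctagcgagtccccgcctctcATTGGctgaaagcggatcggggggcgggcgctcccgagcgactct
Idi1: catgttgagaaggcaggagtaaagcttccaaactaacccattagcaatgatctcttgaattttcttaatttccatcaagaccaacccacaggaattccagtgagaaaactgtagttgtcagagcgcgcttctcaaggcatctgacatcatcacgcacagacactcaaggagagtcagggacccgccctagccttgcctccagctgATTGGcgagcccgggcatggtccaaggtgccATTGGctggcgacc
Msmo1: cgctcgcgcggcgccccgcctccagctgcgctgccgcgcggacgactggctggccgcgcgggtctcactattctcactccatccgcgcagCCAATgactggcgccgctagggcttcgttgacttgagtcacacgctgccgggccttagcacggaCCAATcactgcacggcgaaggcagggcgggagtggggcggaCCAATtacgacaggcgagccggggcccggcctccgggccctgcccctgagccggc
Insig1: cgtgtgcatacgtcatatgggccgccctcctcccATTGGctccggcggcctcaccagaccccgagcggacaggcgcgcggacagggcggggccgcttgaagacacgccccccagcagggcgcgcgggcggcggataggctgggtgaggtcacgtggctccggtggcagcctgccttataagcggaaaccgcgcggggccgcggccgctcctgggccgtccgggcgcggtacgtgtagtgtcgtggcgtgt
Fasn: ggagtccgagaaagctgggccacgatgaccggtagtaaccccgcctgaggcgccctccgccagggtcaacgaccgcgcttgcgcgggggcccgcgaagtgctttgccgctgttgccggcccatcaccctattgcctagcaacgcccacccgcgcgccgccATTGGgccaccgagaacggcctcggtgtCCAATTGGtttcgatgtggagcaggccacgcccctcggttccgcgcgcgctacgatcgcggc
The search of the 250 bases found TCACNCCAC in 1 of the 26 genes, Hmgcs1, where TCACCCCAC lay from 137 to 129 bases before the start site. The share of all 32851 promoter windows of the same length that hold this motif was 1.05%. CCAAT was found in 21 of the 26 genes, in 14 of 15 sterol enzymes, 4 of 8 fatty acid enzymes and 3 of 3 genes of regulation and transport, against 33.9% of all windows and 40.3% of the 11293 tested genes with a window. GGGCGG, the GC box, which can share its end bases with CCAAT, was also found in 21 of the 26 genes, against 32.7% of all windows and 63.1% of the tested genes. TCACGTGA, an E-box form of the sterol element, was found in none of the 26 genes and in 0.785% of all windows. A match is a description of the letters in this window, and 4 genes had more than 1 window because RefSeq lists several start sites for them.

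Levels per transcript length are given in TPM, which allows for transcript length and depth and is the scale on which genes can be compared with each other. In CTL mice, Scd2, a stearoyl-CoA desaturase, stood far above the other members at 810.0 ± 27.4 TPM (SD, n = 5). Hmgcs1, which makes HMG-CoA for the mevalonate pathway, was next at 178.5 ± 20.4 TPM, followed by the fatty acid enzymes Fads1 at 150.3 ± 9.49 TPM and Fasn at 133.7 ± 14.1 TPM, whose spreads meet those of their neighbours in the order. Srebf2 was at 129.2 ± 4.61 TPM and Srebf1 at 46.2 ± 1.78 TPM. The lowest member was Hsd17b7, a sterol ketoreductase, at 16.1 ± 3.58 TPM, next to the sterol carrier gene Stard4 at 16.2 ± 0.812 TPM, a pair that did not differ beyond their spread. Fatty acid enzymes took 6 of the 8 highest places in this order, and no member was near the limit of detection, with 49 to 15647 estimated counts per gene and library.

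**Figure D1:**
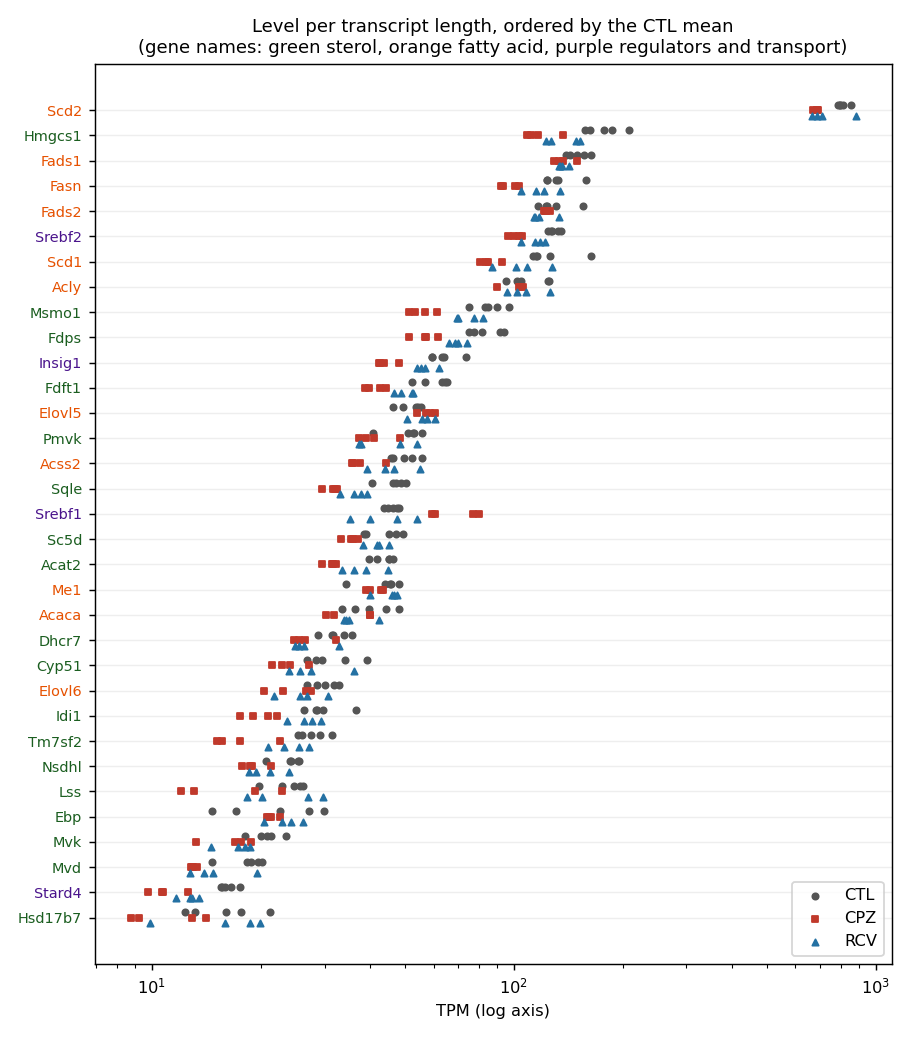
Levels of the 33 genes in TPM on a log axis, 1 point per library, ordered by the CTL mean (grey circles CTL, red squares CPZ, blue triangles RCV). Scd2 stands highest at 810.0 TPM in CTL mice and Hsd17b7 lowest at 16.1 TPM.

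The libraries held 5422264 to 7486387 estimated counts in CTL, 6743067 to 8197289 in CPZ and 4605100 to 6990717 in RCV mice. The ranges of CPZ and RCV overlapped only narrowly, since RCV replicate 1 alone held more counts than the lowest CPZ library. For the 22 pairs of libraries within groups the chi-square per gene lay between 4.5 and 17.8, above the 1 of pure counting error, so that none was a copy of another. In what follows, CPM are counts after TMM scaling for depth, a log2 fold change is from edgeR's fit, and a gene is called higher or lower when the p of edgeR's quasi-likelihood test, adjusted over the 14985 genes by the Benjamini-Hochberg method, is below 0.05. RNA was taken from whole tissue, in which fewer cells of a type and less RNA per cell cannot be told apart.

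Cuprizone feeding for 4 weeks was compared with control chow first. The sterol branch was lower in CPZ mice along most of its length. Of its 18 enzymes 12 were called lower, none was called higher, and all 18 had a negative log2 fold change, with a median of -0.44. Of the 4 genes of regulation and transport, Insig1, Srebf2 and Stard4 were called lower and Srebf1 was called higher. Of the 11 fatty acid enzymes 2 were called lower, Fasn and Scd1, and the median was -0.13. Over all members, 17 of 33 were called lower and 1 higher, while 2.5% of all tested genes were called lower and 7.66% higher in this comparison, and the median log2 fold change of all genes was -0.02. Values of CPZ and CTL libraries did not overlap in 19 members that were lower and 1 that was higher, against 4.86% and 8.25% of all genes.

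**Figure D2:**
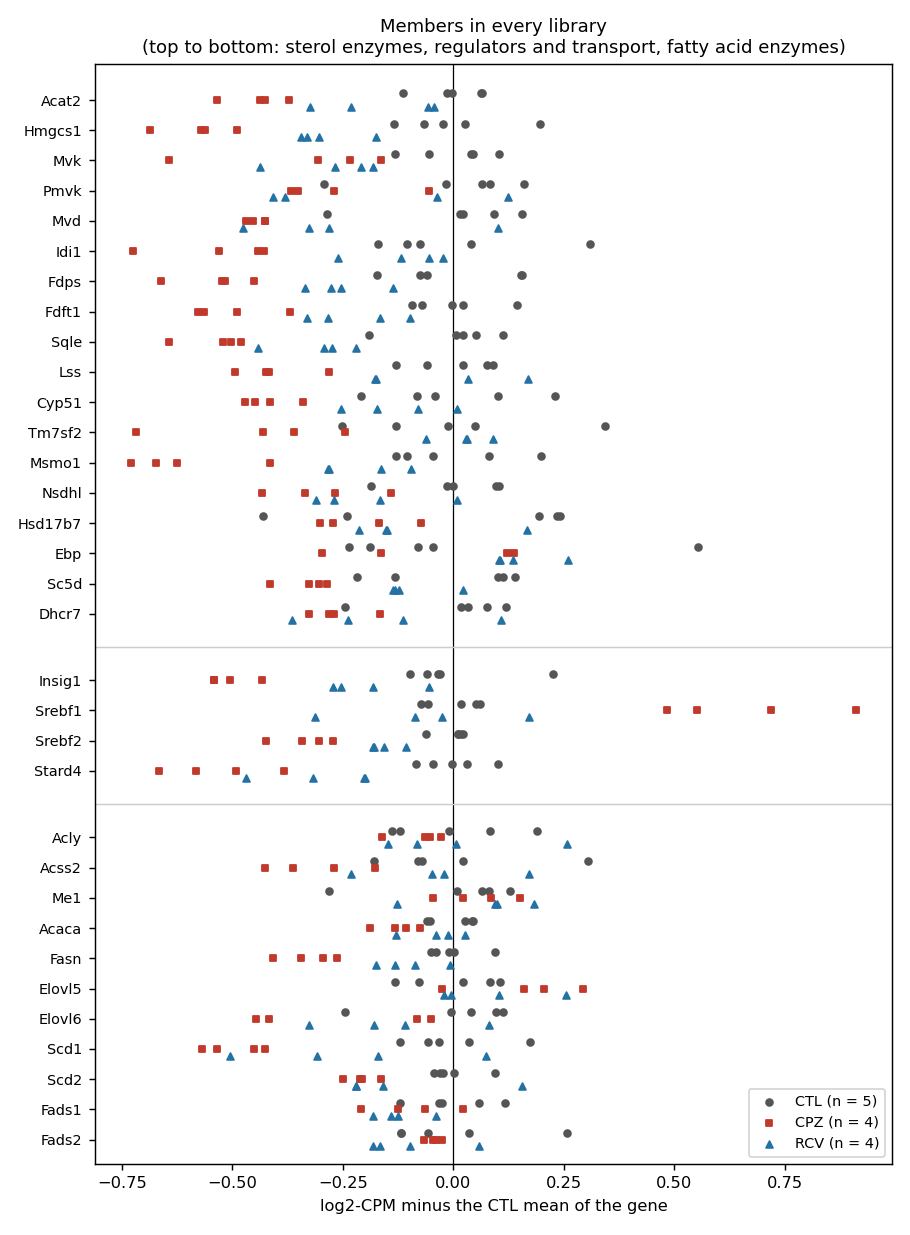
Each library's log2-CPM minus the CTL mean of the gene, for the sterol enzymes in pathway order, the genes of regulation and transport and the fatty acid enzymes (grey circles CTL, red squares CPZ, blue triangles RCV). In 12 of the 18 sterol enzymes all CPZ points lie to the left of all CTL points, in Ebp they lie on both sides of the CTL mean, and Srebf1 is the 1 gene whose CPZ points lie apart to the right.

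The steps from acetyl-CoA to lanosterol held 8 of the 12 sterol calls, among 10 genes with a median log2 fold change of -0.48. Acat2, which joins acetyl-CoA units at the entry to the pathway, was at 38.9, 44.0, 41.6, 44.0 and 42.0 CPM in CTL, 31.0, 32.5, 31.2 and 28.9 CPM in CPZ and 35.8, 33.5, 40.4 and 40.8 CPM in RCV mice. Hmgcs1 was at 219, 208, 262, 225 and 233 CPM in CTL, 142, 163, 154 and 155 CPM in CPZ and 203, 182, 180.1 and 185 CPM in RCV mice. Every CPZ value of both genes lay below every CTL value, and the RCV values of Hmgcs1 lay between the groups without touching either. Hmgcs1 (chr13:119690379-119708260, plus strand, GENCODE M21) fell to 0.669 of its CTL level in CPZ mice, a log2 fold change of -0.58 ± 0.07 with an adjusted p of 2.32e-05. For Acat2 the log2 fold change was -0.45 ± 0.07 with an adjusted p of 0.000538. Its near-identical copy Acat3 was at 5.89 ± 1.17 CPM in CTL (n = 5) and 6.59 ± 1.11 CPM in CPZ mice (n = 4) and was not called.

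Mvd, the decarboxylase that yields isopentenyl diphosphate, was at 11.7, 14.6, 15.98, 15.3 and 14.5 CPM in CTL, 10.4, 10.6, 10.3 and 10.6 CPM in CPZ and 11.7, 10.2, 11.3 and 15.4 CPM in RCV mice. Idi1, which isomerises that product, was at 42.1, 38.1, 50.9, 36.4 and 38.9 CPM in CTL, 30.4, 24.7, 30.1 and 28.3 CPM in CPZ and 34.2, 40.3, 37.7 and 39.5 CPM in RCV mice. Fdps, which builds farnesyl diphosphate, was at 42.0, 42.5, 49.3, 49.2 and 39.2 CPM in CTL, 30.7, 30.9, 32.3 and 27.9 CPM in CPZ and 36.5, 35.0, 40.2 and 37.1 CPM in RCV mice. The CPZ libraries of these 3 isoprenoid genes were all below the CTL libraries, and the CPZ values of Mvd had an SD of only 0.156 CPM (n = 4). The log2 fold changes were -0.46 ± 0.12, -0.54 ± 0.10 and -0.55 ± 0.08 in this order, with adjusted p of 0.0252, 0.00138 and 0.000205. The call of Mvd was lost when any of CTL replicates 3, 4 and 5 or any of the 4 CPZ replicates was left out. It was also lost with the replicate number as a block and with limma on unfiltered TPM values. Over all 24 alternatives its adjusted p reached 0.0755, whereas Idi1 and Fdps remained called under each of them. A copy of Idi1, Idi2, was near 0 in every library and was not tested.

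Fdft1, the squalene synthase at the point where sterol synthesis leaves the isoprenoids, was at 79.2, 80.4, 93.4, 84.4 and 85.8 CPM in CTL, 60.1, 56.5, 65.3 and 57.1 CPM in CPZ and 67.1, 69.3, 75.2 and 78.9 CPM in RCV mice. Sqle, the squalene epoxidase, was at 60.9, 53.1, 62.9, 65.6 and 61.6 CPM in CTL, 38.8, 43.4, 42.2 and 42.7 CPM in CPZ and 50.1, 44.5, 49.5 and 52.0 CPM in RCV mice. Lss, which closes the ring to lanosterol, was at 44.6, 51.5, 52.0, 49.5 and 46.8 CPM in CTL, 36.5, 40.1, 34.5 and 36.3 CPM in CPZ and 43.1, 49.9, 54.9 and 43.1 CPM in RCV mice. All CPZ libraries lay below all CTL libraries in the 3 genes. RCV values of Fdft1 and Sqle lay below the CTL range as well, while those of Lss reached from 43.1 to 54.9 CPM across it. The log2 fold changes in CPZ were -0.50 ± 0.07, -0.54 ± 0.07 and -0.41 ± 0.08, with adjusted p of 9.58e-05, 6.37e-05 and 0.00307. Lss was not called by limma on the TPM values, where its adjusted p reached 0.221. Exons of Fdft1 share 774 bases with those of the cathepsin gene Ctsb on the opposite strand, which had a mean of 4798 counts per library against 475.6 for Fdft1, and whether the counting used strand is not given in the sources used here.

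The 2 uncalled genes of this stretch were the mevalonate kinase Mvk and the phosphomevalonate kinase Pmvk. Mvk values did not overlap between CPZ, at 11.7, 12.3, 12.9 and 9.17 CPM, and CTL, at 14.9, 13.9, 14.9, 15.6 and 13.2 CPM, but the log2 fold change of -0.34 ± 0.11 had an adjusted p of 0.0699. For Pmvk the 95% interval of the log2 fold change ran from -0.52 to -0.01.

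After lanosterol, 4 of 8 genes were called lower, with a median of -0.32. Msmo1, which removes methyl groups from the sterol nucleus, was at 64.8, 68.7, 81.5, 65.9 and 75.0 CPM in CTL, 42.6, 44.4, 53.1 and 45.8 CPM in CPZ and 58.2, 58.3, 66.4 and 63.3 CPM in RCV mice. No CPZ value reached the lowest CTL value, and the log2 fold change of -0.61 ± 0.08 (adjusted p = 8.35e-05) was the lowest of the 33 genes. Cyp51, the lanosterol demethylase, was at 59.4, 47.9, 65.0, 53.8 and 52.3 CPM in CTL, 43.6, 40.5, 39.8 and 41.5 CPM in CPZ and 52.3, 49.1, 46.4 and 55.7 CPM in RCV mice. Sc5d, the sterol C5-desaturase, was at 69.9, 59.4, 71.8, 56.0 and 70.4 CPM in CTL, 48.8, 51.9, 53.4 and 52.7 CPM in CPZ and 59.2, 59.8, 66.2 and 59.4 CPM in RCV mice. In both genes CPZ stayed below CTL and RCV overlapped CTL. Their log2 fold changes in CPZ were -0.43 ± 0.08 and -0.34 ± 0.08, with adjusted p of 0.00256 and 0.00774, and neither was called by limma on the TPM values, where adjusted p reached 0.190 and 0.0760. Cyp51 shares 166 exon bases with Akap9 on the opposite strand, at a mean of 324.5 counts against 757.5.

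Tm7sf2, a sterol C14-reductase, was at 14.9, 12.6, 19.2, 15.6 and 13.8 CPM in CTL, 12.7, 11.7, 11.1 and 9.04 CPM in CPZ and 15.4, 15.4, 14.4 and 16.1 CPM in RCV mice. CPZ and CTL values of this gene overlapped, and the RCV mean of 15.3 CPM was near the CTL mean of 15.2 CPM. Its log2 fold change of -0.45 ± 0.13 had an adjusted p of 0.0321, and the call was lost without CTL replicate 1, 3 or 4 or CPZ replicate 2, 3 or 4. The call was also lost with only the 2 groups compared and with the replicate number as a block. Over all 24 alternatives the adjusted p of Tm7sf2 reached 0.104. Tm7sf2 shares 532 exon bases with Vps51 on the same strand, at a mean of 90.6 counts against 294.8. The 4 genes that were not called were Nsdhl, Hsd17b7, Ebp and Dhcr7, which act on the methyl groups, the C3 ketone and the ring and side double bonds of the last intermediates. Their 95% intervals of the log2 fold change ran from -0.50 to -0.10, from -0.52 to 0.06, from -0.41 to 0.26 and from -0.47 to -0.06. Nsdhl had an adjusted p of 0.0539 and was called by limma-voom and also without CTL replicate 1 or RCV replicate 4, at adjusted p as low as 0.0304. Dhcr7 was called without CTL replicate 2, at an adjusted p of 0.0359. Ebp was the most variable member, with a coefficient of variation of 25.4% among CTL libraries.

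**Figure D3:**
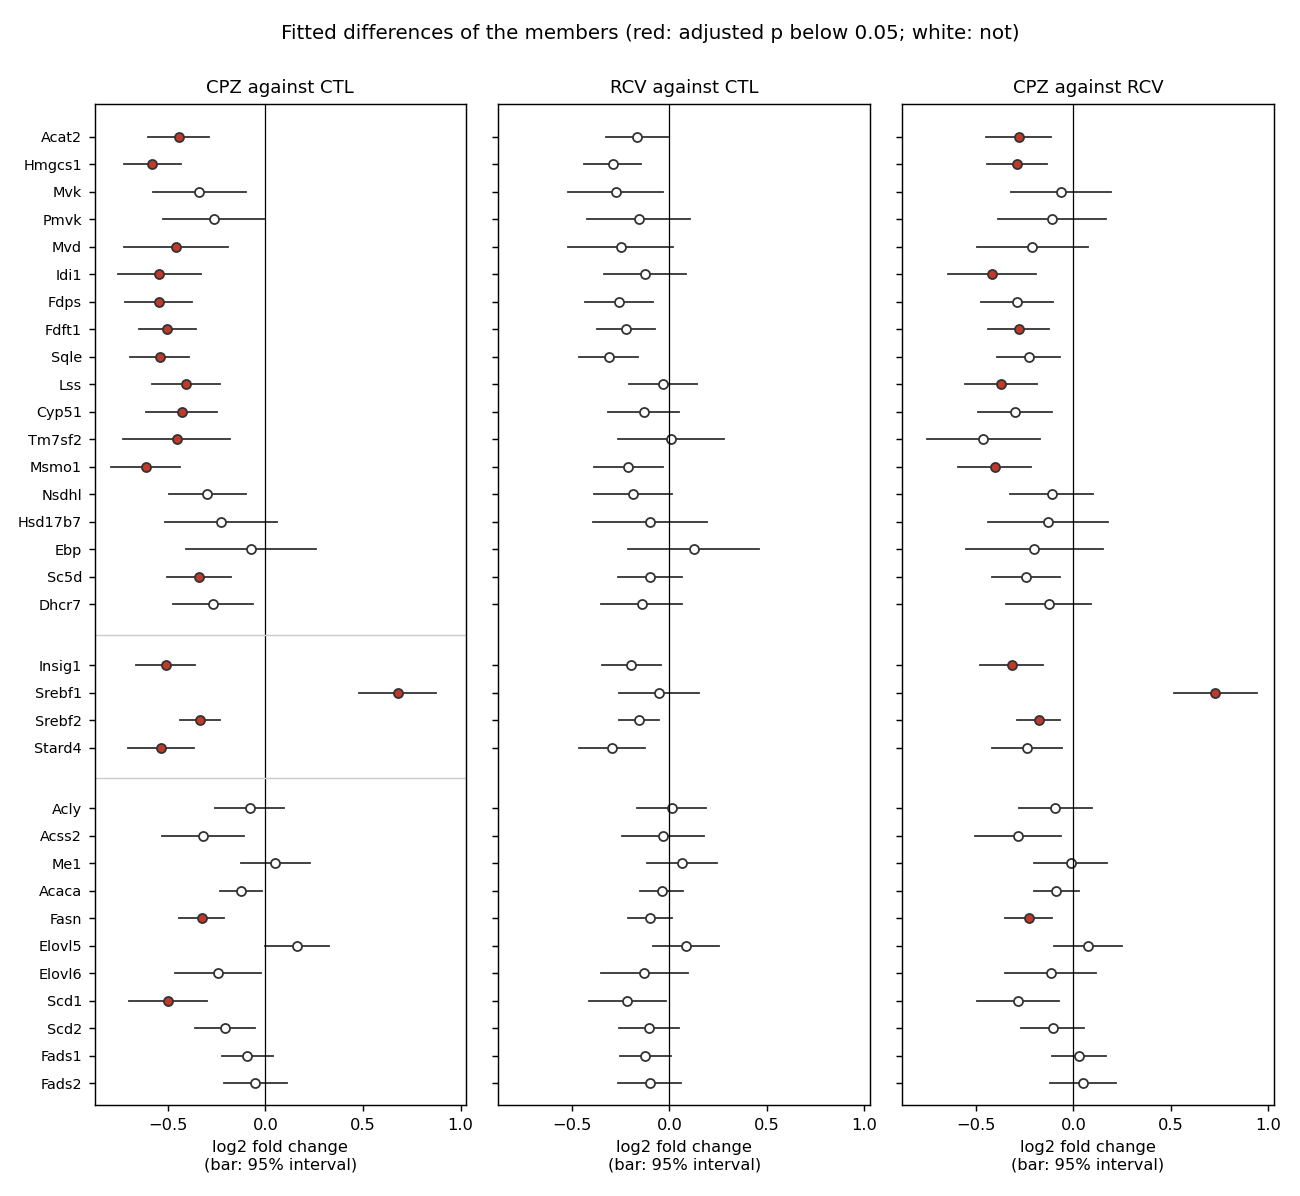
Log2 fold changes of the 33 genes from edgeR's fit in the 3 comparisons, with 95% intervals (red: adjusted p below 0.05, white: not). In CPZ against CTL 18 genes are red, in RCV against CTL 0 and in CPZ against RCV 10.

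The genes that regulate the branches did not move together. Srebf2 was at 258, 258, 260.5, 259.8 and 246 CPM in CTL, 191, 208, 202 and 212 CPM in CPZ and 238, 226, 226 and 230.1 CPM in RCV mice. Srebf1 was at 74.4, 69.0, 74.8, 72.6 and 68.2 CPM in CTL, 118, 135, 105 and 100.5 CPM in CPZ and 70.5, 80.8, 67.5 and 57.7 CPM in RCV mice. Srebf2 thus had 3 separate groups of values with CPZ lowest, whereas Srebf1 was high in CPZ alone, with RCV values on both sides of CTL. The log2 fold change in CPZ was -0.33 ± 0.05 for Srebf2 (adjusted p = 0.00016) and 0.68 ± 0.09 for Srebf1 (adjusted p = 9.71e-05), and both remained called under each of 24 alternatives. Counts per gene do not separate the Srebf1 transcripts that start at different promoters, and Srebf1 shares 109 exon bases with Rai1 on the opposite strand.

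Insig1, which holds SREBPs in the endoplasmic reticulum and is itself a target of SREBPs, was at 71.9, 75.2, 90.1, 75.4 and 73.9 CPM in CTL, 54.2, 57.0, 52.9 and 52.8 CPM in CPZ and 64.5, 67.9, 63.7 and 74.2 CPM in RCV mice. Stard4, a soluble carrier that moves sterols between membranes, was at 35.5, 39.3, 36.6, 34.5 and 37.4 CPM in CTL, 24.3, 23.0, 28.03 and 25.9 CPM in CPZ and 31.8, 29.3, 26.4 and 31.9 CPM in RCV mice. Both were lower in every CPZ library than in any CTL library, and Stard4 was also below the CTL range in all 4 RCV libraries. Their log2 fold changes in CPZ were -0.51 ± 0.07 and -0.53 ± 0.08, with adjusted p of 0.000117 and 0.000205.

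**Figure D4:**
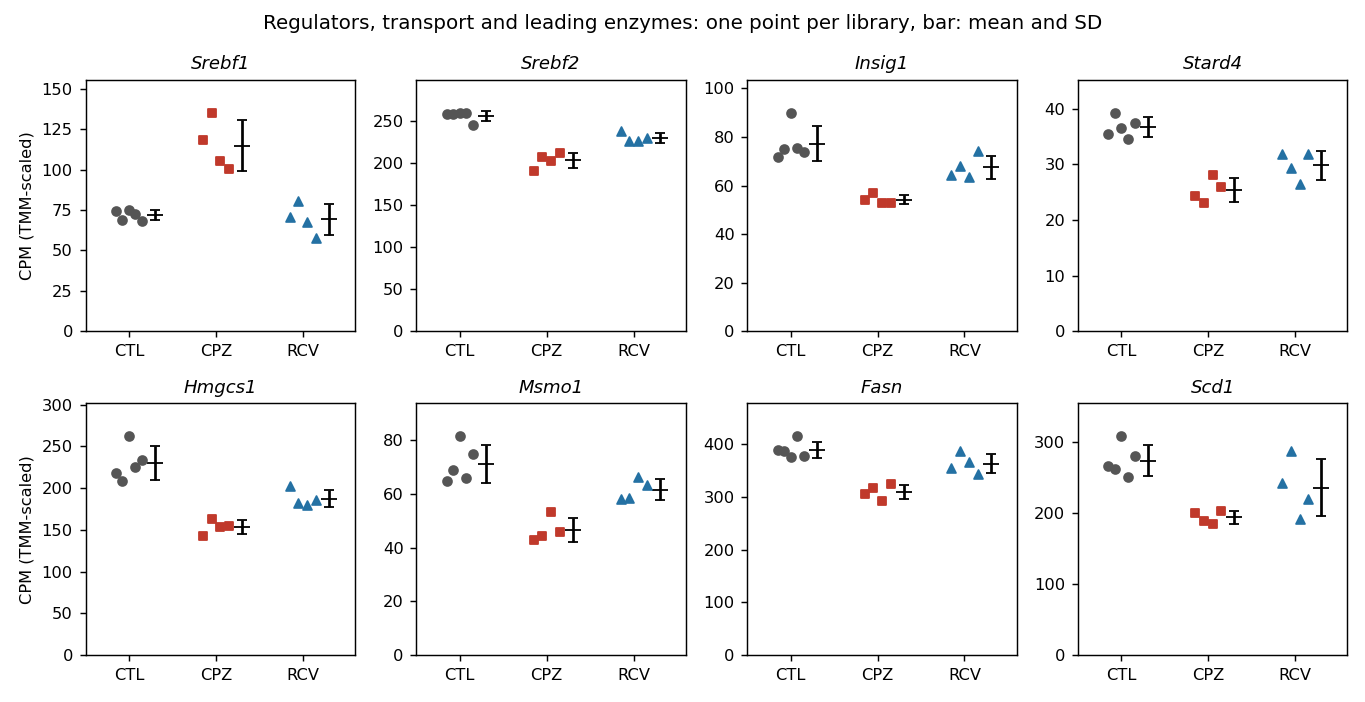
CPM of the 4 genes of regulation and transport and of 4 enzymes, 1 point per library, with the group mean and SD as a bar and axes from 0. Srebf1 lies at 100.5 to 135 CPM in CPZ against 68.2 to 74.8 CPM in CTL mice, and the other 7 genes are lower in CPZ than in CTL.

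In the fatty acid branch, the supply of acetyl-CoA and NADPH, chain synthesis, elongation and desaturation were followed in turn. Fasn, the fatty acid synthase, was at 389.7, 387, 376, 416 and 379 CPM in CTL, 306, 317, 293 and 324 CPM in CPZ and 355, 387, 366 and 345 CPM in RCV mice. Scd1, a stearoyl-CoA desaturase, was at 267, 262, 308, 251 and 279.7 CPM in CTL, 199.5, 188, 184 and 203 CPM in CPZ and 243, 287, 192 and 220.3 CPM in RCV mice. CPZ and CTL did not overlap in either gene, while RCV values of both reached into the CTL range and those of Scd1 were spread most widely. Their log2 fold changes in CPZ were -0.33 ± 0.05 and -0.50 ± 0.09, with adjusted p of 0.000553 and 0.00174. Both calls remained under each of 24 alternatives.

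The other 9 fatty acid genes were not called in CPZ against CTL. Acss2, which activates acetate, came nearest with a log2 fold change of -0.32 ± 0.10 and an adjusted p of 0.0526, and was called under 8 of 24 alternatives, among them without CTL replicate 2, RCV replicate 3 or RCV replicate 4. Scd2 had a log2 fold change of -0.21 ± 0.07 with an adjusted p of 0.0859, did not overlap between the groups, and was called under 3 of 24 alternatives, 1 of them without RCV replicate 2. Acaca, which makes malonyl-CoA, did not overlap either, at 117, 119.7, 111 and 115 CPM in CPZ and 121, 129.9, 130.2, 128 and 122 CPM in CTL mice, but the log2 fold change was only -0.13 ± 0.05 (adjusted p = 0.152). Intervals of the log2 fold change ran from -0.26 to 0.10 for Acly, which cleaves citrate to acetyl-CoA, and from -0.13 to 0.23 for Me1, the malic enzyme that yields NADPH. They ran from -0.46 to -0.02 for the elongase Elovl6, from -0.00 to 0.33 for the elongase Elovl5, from -0.22 to 0.04 for Fads1 and from -0.21 to 0.11 for Fads2, the desaturases of polyunsaturated chains. Elovl5 and Me1 were the 2 fatty acid enzymes with a positive estimate. Exons of Acss2 overlap those of Ggt7 and Gss on the opposite strand by 197 and 395 bases. Of the copies of the desaturases, Scd3 was at about 3.06 ± 0.689 CPM in CTL mice (n = 5) and was not called, and Scd4 was too low to be tested.

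After 2 weeks of recovery, no member was called in RCV against CTL, where 0.374% of all tested genes were called. Without adjustment 11 of the 33 genes had a p below 0.05 in edgeR's test, all of them lower, against 2.17% of all genes that were lower at this level, and DESeq2 called Hmgcs1 and Sqle lower after its own adjustment. The 11 genes were 7 sterol enzymes, 3 genes of regulation and transport and 1 fatty acid enzyme. The sterol median was -0.16 with 16 of 18 estimates below 0, and the fatty acid median was -0.10 with 8 of 11 below 0. In 6 genes, Hmgcs1, Mvk, Fdft1, Sqle, Srebf2 and Stard4, every RCV library lay below every CTL library, which was the case for 0.687% of all genes.

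Sqle had the lowest estimate, a log2 fold change of -0.31 ± 0.07 with an adjusted p of 0.0913, and was called without CTL replicate 2. The values were -0.29 ± 0.07 for Hmgcs1 (adjusted p = 0.106), -0.30 ± 0.08 for Stard4 (adjusted p = 0.195) and -0.16 ± 0.05 for Srebf2 (adjusted p = 0.331). Their 95% intervals, from -0.46 to -0.16, from -0.44 to -0.15, from -0.47 to -0.13 and from -0.26 to -0.05, lay below 0 before adjustment. In contrast, the interval of Srebf1 ran from -0.26 to 0.15 and that of Lss from -0.21 to 0.14. Among the fatty acid enzymes, Scd1 had the lowest estimate, with an interval from -0.41 to -0.02, and Fasn had one from -0.21 to 0.01. The CTL libraries are the same as in the comparison with CPZ, so the estimates of the 2 comparisons are not independent.

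CPZ against RCV gives the difference between the end of the diet and the end of recovery. Of the 33 genes 9 were called lower in CPZ, against 1.88% of all tested genes, and Srebf1 was called higher, against 5.13%. The sterol enzymes called were Acat2, Hmgcs1, Idi1, Fdft1, Lss and Msmo1, 6 of 18, with a branch median of -0.26 and all 18 estimates below 0. Insig1 and Srebf2 were called lower as well, and Fasn was the 1 fatty acid enzyme called, among 11 with a median of -0.09. Msmo1 had a log2 fold change of -0.40 ± 0.09 (adjusted p = 0.00969), Idi1 one of -0.42 ± 0.11 (adjusted p = 0.0242) and Srebf1 one of 0.73 ± 0.10 (adjusted p = 0.000435). Tm7sf2 had the lowest estimate, -0.46 ± 0.14, with an adjusted p of 0.054. The other calls had log2 fold changes of -0.37 for Lss, -0.32 for Insig1, -0.29 for Hmgcs1, -0.28 for Fdft1, -0.28 for Acat2, -0.23 for Fasn and -0.18 for Srebf2. In 11 sterol enzymes the CPZ libraries lay below all RCV libraries, against 4.93% of all genes.

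Most of these 10 calls depended on single libraries. Of the 10, 3 stayed called without CPZ replicate 1, 6 without CPZ replicate 2 and 5 without CPZ replicate 3 or RCV replicate 4, while 4 stayed called without RCV replicate 3, where Scd1 was called in addition. The estimates moved less than the calls, with log2 fold changes over the 13 libraries left out in turn from -0.42 to -0.30 for Lss, from -0.34 to -0.26 for Insig1, from -0.32 to -0.25 for Hmgcs1 and from -0.47 to -0.36 for Idi1. Choroid plexus markers were low in RCV replicates 3 and 4, at 221.9 and 240.3 summed CPM against 854.1 to 4289 CPM in the other 11 libraries, and without both of these libraries 2 members were called, Srebf1 and Scd1. Srebf1 was called under each of the 24 alternatives and Msmo1 under 23 of them. Acat2 (adjusted p = 0.0408) and Srebf2 (adjusted p = 0.0454) were each called under only 5 of the 24, and the remaining calls under 14 to 19. The part of the choroid plexus in these values was not tested.

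Ordered by mean CPM, 16 of the 18 sterol enzymes had CPZ lowest, RCV between and CTL highest. The exceptions were Tm7sf2 and Ebp, with CTL between. Insig1, Srebf2 and Stard4 had the same order as the 16 enzymes, while Srebf1 had RCV lowest and CPZ highest. Among fatty acid enzymes 6 of 11 had the order of the sterol branch, and Fads1 and Fads2 had RCV lowest.

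The branches were then set side by side within each library, as the median over a branch's genes of log2-CPM minus the CTL mean. For the sterol enzymes the 4 CPZ libraries had medians of -0.42, -0.37, -0.43 and -0.46, and the RCV libraries -0.18, -0.22, -0.19 and -0.14. The CTL libraries lay between -0.12 and 0.16, so the 3 groups did not overlap in this median. For the fatty acid enzymes the CPZ libraries had medians of -0.11, -0.12, -0.19 and -0.13, the RCV libraries -0.13, 0.07, -0.09 and -0.18, and the CTL libraries lay between -0.04 and 0.08. CPZ was thus below CTL in this branch as well, by less, and RCV overlapped both. The sterol median minus the fatty acid median was -0.31, -0.24, -0.24 and -0.33 in the CPZ libraries, a mean of -0.28 ± 0.05 (SD, n = 4). It was -0.10 ± 0.14 in RCV (n = 4), from -0.29 to 0.03, and 0.01 ± 0.07 in CTL mice (n = 5), from -0.11 to 0.07. Every CPZ library had a larger distance between the branches than any CTL library. RCV replicate 2 set the lower end of the RCV range, with the sterol median lowest and the fatty acid median highest in its group, and without it the RCV mean was -0.04. No test was made of these medians, since the genes were chosen with earlier results known.

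**Figure D5:**
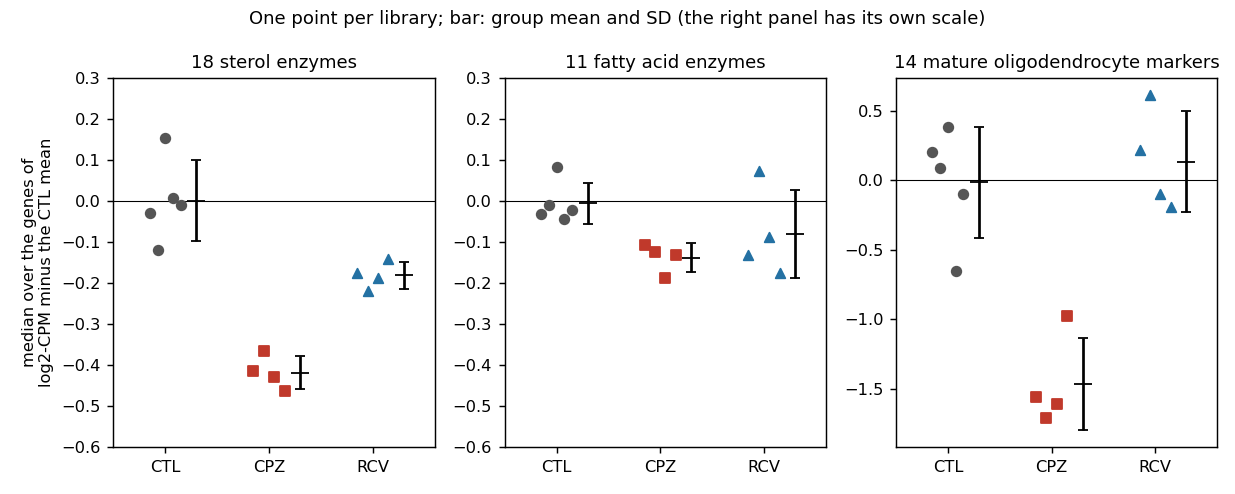
Median over the genes of log2-CPM minus the CTL mean, 1 point per library, for sterol enzymes, fatty acid enzymes and mature oligodendrocyte markers, with the group mean and SD as a bar. Sterol medians of RCV libraries, -0.22 to -0.14, lie between those of CPZ and CTL. The oligodendrocyte marker medians of RCV, -0.19 to 0.61, lie within and above the CTL range. The low end of that CTL range, -0.66, is CTL replicate 4 alone.

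Cell type markers moved with the groups and are given beside these values. Of 14 markers of mature oligodendrocytes, 13 were called lower in CPZ against CTL, with a median log2 fold change of -1.50, and 0 of 14 were called in RCV against CTL by edgeR, DESeq2 or limma-voom, nor had any an unadjusted p below 0.05, with a median of 0.14. Their summed level was 4445 to 8352 CPM in CTL, 1895 to 3234 CPM in CPZ and 5851 to 9996 CPM in RCV mice. None of the RCV libraries was below the CTL range in this sum, and all 4 were below the CTL range of the sterol median. The low end of the CTL range of the sum was CTL replicate 4 alone, at 4445 CPM. The next lowest CTL library was at 6241 CPM, above RCV replicate 4 at 5851 CPM. The SD among CTL libraries (n = 5) was 0.40 for the marker median and 0.099 for the sterol median. Within groups, some libraries had the same place in the order of the markers and of the sterol enzymes and others did not. CTL replicate 3 was highest of its group in both, with a marker median of 0.39 and a sterol median of 0.16. CTL replicate 4 had a marker median of -0.66 with a sterol median of 0.01, and CPZ replicate 4 had the highest marker median of its group, -0.98, with the lowest sterol median, -0.46. Among 10 markers of precursor and premyelinating oligodendrocytes 3 were called higher in CPZ against CTL and 0 in RCV against CTL, and their summed level was 484.1 to 594.9 CPM in CTL, 563.3 to 629.7 CPM in CPZ and 469.2 to 691.6 CPM in RCV mice.

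All 12 microglia markers were called higher in CPZ against CTL, with a median of 2.53, as were 7 of 8 markers of reactive astrocytes, with a median of 2.44. Microglia markers summed to 389.0 to 464.4 CPM in CTL, 1361 to 2858 CPM in CPZ and 595.1 to 822.5 CPM in RCV mice. Reactive astrocyte markers summed to 196.8 to 266.8 CPM in CTL, 1025 to 1368 CPM in CPZ and 611.4 to 950.6 CPM in RCV mice. Of 10 general astrocyte markers 3 were called higher, with a median of 0.15. Of 8 excitatory neuron, 6 inhibitory neuron, 7 endothelial and 7 choroid plexus markers 0 were called by edgeR, DESeq2 or limma-voom in this comparison, with 1 endothelial marker at an unadjusted p below 0.05 in edgeR's test, although choroid plexus markers varied widely within groups, from 221.9 to 4289 summed CPM. What part these cell types had in the levels of the sterol and fatty acid genes was not tested.

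Further genes of the pathways were read from the same fit. Of 11 other sterol genes 10 were tested, among them Scap, the escort of SREBPs, Insig2 and the proteases Mbtps1 and Mbtps2 that release SREBPs, and 0 were called by edgeR in the 3 comparisons. At an unadjusted p below 0.05 there were 1 in CPZ against CTL, 0 in RCV against CTL and 2 in CPZ against RCV, and DESeq2 and limma-voom also called 0 in the comparisons with CTL. The 1 gene in CPZ against CTL was Scap, at 95.7 ± 6.29 CPM in CTL (n = 5) and 83.7 ± 2.71 CPM in CPZ mice (n = 4). Of 20 other fatty acid genes 19 were tested and 1 was called in CPZ against CTL and in CPZ against RCV, Mid1ip1, whose product promotes the assembly of acetyl-CoA carboxylase. Of all tested genes 7.66% were called higher in CPZ against CTL and 5.13% in CPZ against RCV, so 1 of 19 is near the share of all genes. Mid1ip1 was higher, at 123.6 ± 6.53 CPM in CPZ (n = 4) against 97.5 ± 4.601 CPM in CTL (n = 5) and 89.9 ± 14.1 CPM in RCV mice (n = 4). The adjusted p of Mid1ip1 from edgeR was 0.0105 against CTL and 0.0038 against RCV, with log2 fold changes of 0.34 and 0.46. In CPZ against CTL limma-voom called the same numbers, 0 lower and 1 higher, whereas DESeq2 also called Tecr lower, the reductase of the last step of chain elongation, at an adjusted p of 0.0389 against 0.0716 from edgeR. The median log2 fold changes of both lists in CPZ against CTL, -0.02 and -0.04, were near the -0.02 of all genes.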

How the data were processed

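Bulk RNA-seq libraries of mouse brain hemispheres (13 libraries, 5 CTL, 4 CPZ, 4 RCV) were made by the authors with an mRNA kit and sequenced as paired reads on an Illumina instrument. Per the labels, the submitters' processing notes name STAR, RSEM and mm10, without versions or roles, and the paper names the RNASequest pipeline. What the authors deposited are estimated counts for every gene, with no scaling for depth, and TPM values, which allow for transcript length and depth. Of the estimated counts 8.54% were not whole, and all were rounded. The identifiers of 92 spike-in sequences held counts of 0 and were left out. The nuclei and spatial data of the study were not analysed here.

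Groups came from the sample labels. The tool was edgeR 4.0.16, with its filterByExpr by group, TMM scaling and robust quasi-likelihood test. A single model held all 13 libraries, a mean for each group and no covariate, with Benjamini-Hochberg adjustment over 14985 genes at a threshold of 0.05. A standard error is the log2 fold change divided by the root of F, given after ±, and 95% intervals use the t distribution of the fit. Log2-CPM used a prior count of 2. The members, the branches and the lists of markers and other pathway genes were chosen with earlier results of these data known, and no test over a list was made. Members called in at least 1 comparison are given in every library, the others by ranges or intervals, and of other lists up to 3 called genes; Scap, Tecr and the genes that members overlap were named after their values were seen. Gene positions and exon overlaps are from GENCODE M21, where 33 of 33 members matched, 32 of them with the same version of the identifier. Promoters are from RefSeq. Alternatives were DESeq2 1.42.0 size factors and Wald test, limma 3.58.1 with voom or on log2(TPM + 1) and log2(TPM + 0.1), with and without a filter on TPM, other count filters, only the 2 groups compared, the replicate number as a block, means in place of medians, the regulators counted with the branches, and each library left out in turn. Leaving out the 2 RCV libraries low in choroid plexus markers was chosen after seeing the data. The fit was checked on simulated counts. R 4.3.3, Python 3.11.15 and matplotlib 3.10.9 were used.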

Additional observations from a re-analysis of the deposited data

Results flagged for a closer look

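In 7 of 99 groups of values (33 genes in 3 groups of libraries) a single library lay far from the others of its group by Dixon's criterion, and chance alone gives about 1 in 20. In CTL mice, replicate 3 was high for Insig1 at 90.1 CPM, with the others at 71.9 to 75.4 CPM, and for Ebp at 19.5 CPM, with the others at 11.2 to 12.8 CPM. This library had the highest value of its group in 13 of the 18 sterol enzymes, and also the highest sums of mature oligodendrocyte markers, 8352 CPM, and of choroid plexus markers, 4289 CPM. CTL replicate 2 was low for Dhcr7 at 27.6 CPM, with the others at 33.2 to 35.6 CPM, and CTL replicate 5 was low for Srebf2 at 245.7 CPM, with the others at 258.5 to 260.5 CPM. In RCV mice, replicate 1 was high for Hsd17b7 at 28.2 CPM against 21.6 to 22.6 CPM. Replicate 3 was high for Sc5d at 66.2 CPM against 59.2 to 59.8 CPM. Replicate 2 was high for Scd2 at 2368 CPM against 1823 to 1904 CPM, and had the highest value of its group in 8 of the 11 fatty acid enzymes, with the highest sum of mature oligodendrocyte markers, 9996 CPM, and the lowest sum of excitatory neuron markers, 2692 CPM, of the RCV libraries. The part of these cell types in the values was not tested. CPZ libraries had no such value. Without CTL replicate 3 the median log2 fold change of the sterol enzymes in CPZ against CTL was -0.38 in place of -0.44.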

How the results depend on the processing

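In CPZ against CTL, 13 of the 18 calls remained under each of 24 alternatives, those of Acat2, Hmgcs1, Idi1, Fdps, Fdft1, Sqle, Msmo1, Insig1, Srebf1, Srebf2, Stard4, Fasn and Scd1, and the number of calls lay between 16 and 20 when single libraries were left out. In RCV against CTL, DESeq2's Wald test called 2 members, and leaving out single libraries gave 0 to 1, the 1 being Sqle without CTL replicate 2. In CPZ against RCV the number of members called, 10, became 3 with each of the 3 limma fits on TPM, 6 without a filter on counts, 2 without the RCV libraries low in choroid plexus markers and 3 to 12 with single libraries left out. The fatty acid median in that comparison was -0.17 without those RCV libraries, and -0.13 to -0.0091 with single libraries left out, nearest to 0 without RCV replicate 2. The cause of these differences was not tested. No pairing by replicate number was seen in the correlations of deviations from the group means over all tested genes. Same-numbered libraries correlated from -0.199 to 0.136, with 3 of 12 pairs over 0.1, against 15 of 44 pairs with other numbers. A batch shared by number that affects few genes could be missed by such correlations. With the replicate number as a block, members called were 16 in CPZ against CTL, 0 in RCV against CTL and 5 in CPZ against RCV. Among all genes, the 1522 calls of CPZ against CTL became 993 with limma on unfiltered TPM. The 56 calls of RCV against CTL became 131 with DESeq2, 16 with limma-voom, 16 with unfiltered TPM, 20 with at least 10 counts in every library, 34 without the 2 RCV libraries and 21 to 87 with single libraries left out. The 1050 calls of CPZ against RCV became 584, 503 and 477 with the limma fits on TPM, 556 without the 2 RCV libraries, and 632 and 693 without CPZ replicates 1 and 2. No call of a member changed direction under the alternatives run. With 4 or 5 libraries per group, small differences such as those between RCV and CTL were estimated with standard errors of about 0.05 to 0.16 on the log2 scale, and depth limited Mvk most, at 49 counts in its lowest library.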
